A study of Mus musculus with 6 samples.

Results

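Chemokines, cytokines and genes of the NF-kappaB pathway were examined in hair follicle stem cells of mouse skin, sorted at postnatal day 49 from K14-sPLA2-IIA transgenic (TG) and wild-type (WT) mice. The gene set was a list of 42 genes grouped by function, with no threshold on their measured values. Of these, 41 had a feature annotated to that gene alone, among 22180 genes in all, and the brightest feature over the 6 arrays stood for each gene. No value is given for Nfkb1, which had no such feature. Csf2 and Socs3 had a second feature each. TG mice carried a transgene in which, by its name, a keratin 14 promoter drives secreted phospholipase A2 group IIA. That promoter is active in keratinocytes of the basal epidermal layer and of the follicle's outer root sheath. WT mice carried no transgene. Cells of both genotypes were sorted by flow cytometry for CD34 and α6-integrin, and there were 3 TG arrays and 3 WT arrays, numbered 1 to 3 in each genotype. The labels do not state strain, sex, the species of the transgene, or whether animals were pooled or each array had its own mouse, so the p-values cover the spread between arrays, part of which may be technical.

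Chemokines are small secreted proteins that draw leukocytes into tissue. Those with adjacent cysteines (CC) act mainly on monocytes, T cells and dendritic cells, and several of those with separated cysteines (CXC) act on neutrophils. Keratinocytes make many of them, along with cytokines that sustain the skin's own T cells, Langerhans cells, mast cells and pigment cells. NF-kappaB is a family of dimeric transcription factors held in the cytoplasm by IkappaB proteins. Signals from the TNF and interleukin-1 receptors release it, and it then switches on chemokine genes together with its own inhibitors.

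Values are those the authors deposited for each array, taken to be on a log2 scale. Differences are TG minus WT on that scale, so a difference of 1 is a doubling if the log base is 2, which the sources used here do not state. Levels were compared between arrays for the same gene only, since each gene has its own probes. For Ccl8 and Il6, the lower quartile of all features is named as well. Pla2g2a, which encodes the enzyme named in the transgene, read 12.61, 12.57 and 12.39 on TG arrays 1 to 3 and 6.77, 5.75 and 5.90 on WT arrays 1 to 3. It was the 1 gene past the adjusted threshold. The arrays numbered 3 stood apart in both genotypes. On the first principal component, with 64.4% of the variance, TG array 3 and WT array 3 scored 52.9 and 49.7, against scores of -34.2 to -2.32 for the other 4 arrays. Suprabasal keratinocyte and T-cell markers had their lowest mean levels on the arrays numbered 3, and marker values are given below beside the genes concerned.

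No member passed the test between genotypes. With limma and Benjamini-Hochberg adjustment over all genes, 0 of 41 members were called higher (0.00451% of all genes) and 0 were called lower (0% of all genes), and every member had an adjusted p of 0.99996. At an unadjusted p under 0.05, 2 members were higher in TG (Ccl2 and Tslp, 1.93% of all genes) and 2 were lower (Il34 and Csf1, 0.843% of all genes). The median difference of the members was 0.010, against -0.0075 for all genes, and 21 of 41 members lay above 0 (47.9% of all genes). The TG arrays did not overlap the WT arrays for 2 members, or 4.88%, against 7.2% of all genes. Both of these members were higher in TG (3.99% of all genes) and 0 were lower (3.21% of all genes). Without TG array 3, 11 members did not overlap, where 20.1% of all genes did not.

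**Figure D1:**
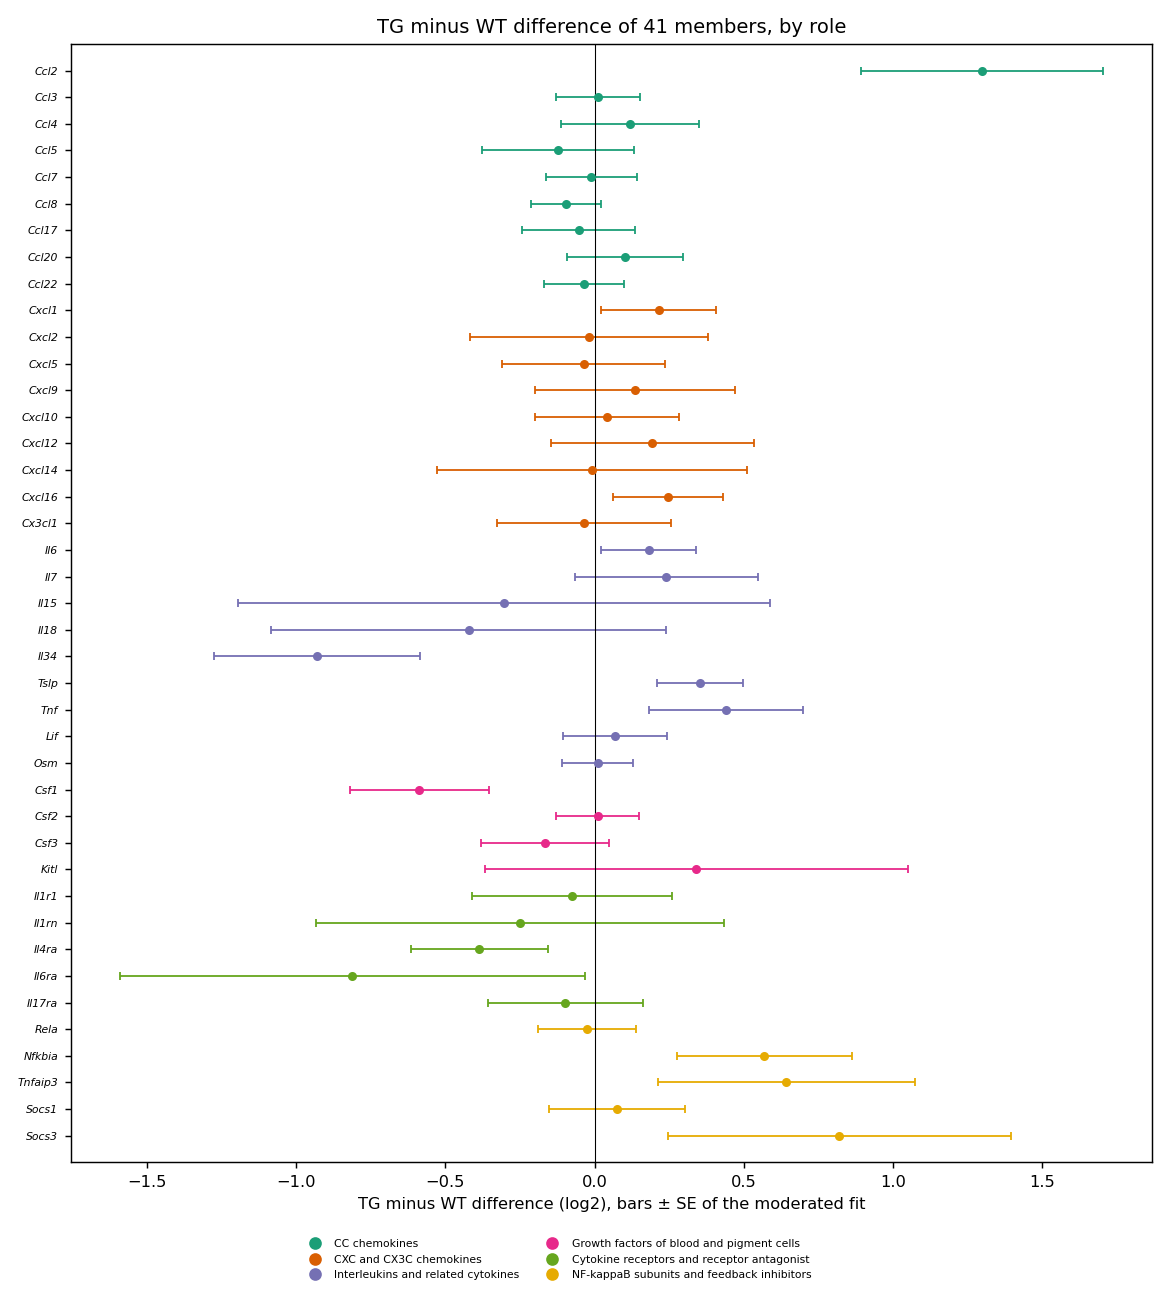
TG minus WT difference on the log2 scale (horizontal axis) of the 41 members, grouped by role from top to bottom. Points are differences of means of 3 TG and 3 WT arrays, and bars are the SE from limma's moderated variance. Ccl2 lies farthest to the right at 1.30 and Il34 farthest to the left at -0.93, while most chemokines lie near 0.

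The labels do not pair the arrays, so any pairing by number rests on the data alone. Compared within the pairs of arrays that share a number, 6 members were higher in TG in all 3 pairs and 7 were lower in all 3. These shares, 14.6% and 17.1%, were close to those of all genes, 14.6% and 16.5%. The 6 higher members were Ccl2, Il6, Tslp, Kitl, Nfkbia and, by the feature used but not by its second feature, Socs3. The 7 lower members were Ccl8, Il18, Il34, Csf1, Il1rn, Il4ra and Il6ra. With the replicate number as a block in limma, 5 members were higher at an unadjusted p under 0.05 (4.59% of all genes) and 4 were lower (3.86% of all genes). They were Ccl2, Tslp, Kitl, Nfkbia and Socs3 on the higher side and Il34, Csf1, Il18 and Il6ra on the lower side. No member passed the adjusted threshold in that fit either, and the lowest adjusted p of a member was 0.533.

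Ccl2 had the largest TG minus WT difference of the 41 members. It encodes the monocyte attractant CCL2, a classical product of keratinocytes and fibroblasts under inflammatory stimuli. It read 8.79, 9.26 and 7.57 on TG arrays 1 to 3, against 7.34, 7.17 and 7.23 on WT arrays 1 to 3. All TG arrays lay above all WT arrays, and the TG arrays were far more spread, with TG array 3 close to the WT level. The means were 8.54 ± 0.87 in TG and 7.24 ± 0.085 in WT (SD, n = 3 each). The difference was 1.30 ± 0.41 (standard error, SE), or 2.46-fold, with a 95% confidence interval of 0.33 to 2.27 in limma. Its unadjusted p was 0.016 in limma and its exact two-sided permutation p was 0.1, the smallest that 3 against 3 arrays can give. Without both arrays numbered 3 the difference was 1.77, and without TG array 2 it was 0.94. The related monocyte chemokine genes Ccl7 and Ccl8 showed no such separation. Ccl7 read 6.74, 6.93 and 6.84 in TG, against 7.06, 6.87 and 6.62 in WT, and Ccl8 read 4.55, 4.47 and 4.53 in TG, against 4.66, 4.53 and 4.65 in WT. The Ccl8 difference was -0.095 ± 0.12 (SE), with an exact two-sided permutation p of 0.2. Each Ccl8 value lay below the lower quartile of all features on its array, so its lack of separation says little.

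In bulk RNA of sorted cells, fewer cells of a type and less RNA per cell cannot be told apart. Fibroblast markers, measured for 7 of 7 genes, were all above 0 in the TG minus WT difference. Their mean level was 6.33 to 6.50 on the TG arrays and 5.91 to 6.08 on the WT arrays, and 0 of the 7 passed the adjusted threshold. Macrophage and monocyte markers overlapped between genotypes, with a mean level over 10 genes of 6.08 to 6.57 in TG and 6.25 to 6.55 in WT. Of these 10 genes, 2 were above 0, and 4 were under quantile normalization or median centring. One of them, Adgre1, which encodes the macrophage marker F4/80, differed by -0.52 with an unadjusted p of 0.0462 in limma. These markers' part in the Ccl2 values was not tested.

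The remaining CC chemokines differed little between genotypes. Ccl20, whose product attracts Langerhans cell precursors and T cells through CCR6, averaged 7.62 ± 0.11 in TG and 7.52 ± 0.34 in WT (SD, n = 3 each). Ccl5, a chemokine gene active in T cells, read 6.81, 6.90 and 6.16 in TG, against 7.00, 6.84 and 6.40 in WT, and was lowest on the arrays numbered 3 of both genotypes. Ccl3, Ccl4, Ccl17 and Ccl22 had means that lay within 1 SD of each other between genotypes. Ccl17 and Ccl22 encode ligands of CCR4, a receptor of skin-homing T cells. They averaged 4.80 ± 0.33 and 5.63 ± 0.12 in TG, against 4.85 ± 0.083 and 5.66 ± 0.12 in WT (SD, n = 3 each). Across the 9 CC chemokines, differences ranged from -0.12 to 1.30 with a median of -0.011.

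Of the 9 CXC and CX3C chemokines, 0 had an unadjusted p under 0.05 in limma, and their differences ranged from -0.037 to 0.25 around a median of 0.042. The genes of the neutrophil attractants did not move as a group. Cxcl1 read 5.91, 6.37 and 6.12 in TG, against 6.22, 5.79 and 5.73 in WT, a difference of 0.22 ± 0.19 (SE). This became 0.33 without TG array 1, 0.096 without TG array 2, 0.37 without WT array 1 and 0.12 without WT array 3. Its genotypes overlapped, since WT array 1 lay above TG arrays 1 and 3. Cxcl2 read 5.33, 5.46 and 6.49 in TG, against 5.60, 5.31 and 6.43 in WT. Cxcl5 read 4.57, 4.63 and 5.39 in TG, against 4.87, 4.59 and 5.24 in WT. For both Cxcl2 and Cxcl5, the array numbered 3 was the highest in each genotype. The genes of interferon-induced CXCR3 ligands overlapped between genotypes as well. Cxcl9 averaged 7.13 ± 0.56 in TG and 6.99 ± 0.43 in WT, and Cxcl10 averaged 6.14 ± 0.35 in TG and 6.09 ± 0.33 in WT (SD, n = 3 each).

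Cxcl14 and Cxcl12 separated arrays rather than genotypes. Cxcl14 encodes a chemokine made constitutively by skin epithelium. It read 13.00, 11.72 and 13.26 in TG, against 12.20, 12.24 and 13.58 in WT. The arrays numbered 3 were the highest and TG array 2 was the lowest. Bulge stem cell markers, by their mean over 8 genes, had the same order of arrays within each genotype. Their part in the Cxcl14 values was not tested. Cxcl12, whose product binds CXCR4 and is best known from stroma, read 8.57, 8.18 and 8.33 in TG, against 7.76, 7.77 and 8.97 in WT. WT array 3 was above every TG array, while WT arrays 1 and 2 were below every TG array. Cxcl16, which encodes a membrane-bound chemokine that binds CXCR6 on T cells, read 11.46, 11.81 and 11.17 in TG, against 11.16, 11.33 and 11.21 in WT. Its difference was 0.25 ± 0.18 (SE), with 0.081 in the absence of TG array 2 and 0.40 in that of TG array 3. Cx3cl1, which encodes fractalkine, read 7.72, 7.75 and 7.07 in TG, against 7.93, 7.70 and 7.02 in WT, and was low on both arrays numbered 3.

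Il34 was the member with the largest difference on the lower side. It encodes interleukin-34, the keratinocyte ligand of the receptor CSF1R that Langerhans cells need. It read 8.30, 9.36 and 8.29 on the TG arrays, against 9.78, 9.83 and 9.13 on the WT arrays. TG array 2 lay above WT array 3, so the genotypes overlapped, but TG was lower in all 3 pairs by number, with differences of -1.49, -0.46 and -0.84. The difference of -0.93 ± 0.34 (SE) had a 95% confidence interval of -1.75 to -0.11 in limma, an unadjusted p of 0.0322 and an exact two-sided permutation p of 0.2. Csf1, whose product is the other ligand of the same receptor, read 7.82, 8.63 and 8.26 in TG, against 9.03, 8.84 and 8.60 in WT. Only TG array 2 and WT array 3 overlapped, by a narrow margin. Its difference was -0.59 ± 0.23 (SE), with a 95% confidence interval of -1.14 to -0.033 and an unadjusted p of 0.0406 in limma. Without TG array 1 it was -0.38.

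The receptor gene itself and the Langerhans cell markers were measured on the same arrays. Csf1r read 7.53, 8.26 and 7.13 in TG, against 7.60, 7.95 and 7.83 in WT, and did not separate the genotypes. Cd207, which encodes langerin, the defining marker of Langerhans cells, read 7.86, 8.59 and 6.87 in TG, against 8.43, 8.01 and 7.22 in WT. The 7 measured Langerhans and dendritic cell markers had a mean level of 6.85 to 7.71 in TG and 7.00 to 7.53 in WT, with 2 of 7 above 0 in the TG minus WT difference. Suprabasal keratinocyte markers, by their mean over 7 genes, were lower in TG in each pair by number, with differences of -1.12, -0.14 and -0.33. The differences were -1.21, -0.21 and -0.35 for Csf1 and -1.49, -0.46 and -0.84 for Il34. The Csf1 levels did not run parallel to the suprabasal markers, since among the TG arrays Csf1 was lowest on array 1 and the markers on array 3. Il34 had the same order of arrays as these markers within each genotype, with TG arrays 1 and 3 nearly level at 8.30 and 8.29. The part of either marker list in the Il34 and Csf1 values was not tested.

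Tslp and Tnf, 2 inflammatory cytokine genes, read higher on most TG arrays. Tslp encodes thymic stromal lymphopoietin, an epithelial cytokine that acts on dendritic cells and type 2 immunity. It read 6.76, 6.48 and 6.41 in TG, against 6.26, 6.09 and 6.24 in WT. All TG arrays lay above all WT arrays, but the lowest of them was close to the highest WT array. The difference was 0.35 ± 0.14 (SE), or 1.28-fold, with an unadjusted p of 0.0458 in limma and an exact two-sided permutation p of 0.1. Tnf read 7.74, 7.53 and 6.79 in TG, against 7.09, 6.75 and 6.90 in WT. TG arrays 1 and 2 lay above all WT arrays, while TG array 3 lay among them. Its difference of 0.44 ± 0.26 (SE) was 0.72 both without the arrays numbered 3 and without TG array 3 alone, and 0.25 without TG array 1.

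Il6, which encodes interleukin-6, read 4.11, 3.94 and 3.77 in TG, against 3.81, 3.92 and 3.55 in WT, with a difference of 0.18 ± 0.16 (SE), and of 0.094 without TG array 1 and 0.077 without WT array 3. The other IL-6 family genes, Lif and Osm, barely varied: the 6 arrays spanned 0.48 for Lif and 0.17 for Osm. Il7, whose product sustains T cells, read 5.74, 6.56 and 5.31 in TG, against 5.52, 5.69 and 5.67 in WT, with TG array 2 the highest and TG array 3 the lowest.

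Il15 and Il18 varied far more between arrays of the same genotype than between genotypes. Il15 encodes a survival factor of skin T cells and natural killer cells. It read 7.50, 7.90 and 5.65 in TG, against 8.19, 8.27 and 5.50 in WT. Il18, which encodes a keratinocyte cytokine stored as a precursor, read 8.42, 9.45 and 7.35 in TG, against 9.07, 9.70 and 7.71 in WT. Both genes were at their lowest on the arrays numbered 3 of both genotypes. Within pairs by number, Il18 was lower in TG in all 3, with differences of -0.66, -0.25 and -0.36.

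**Figure D2:**
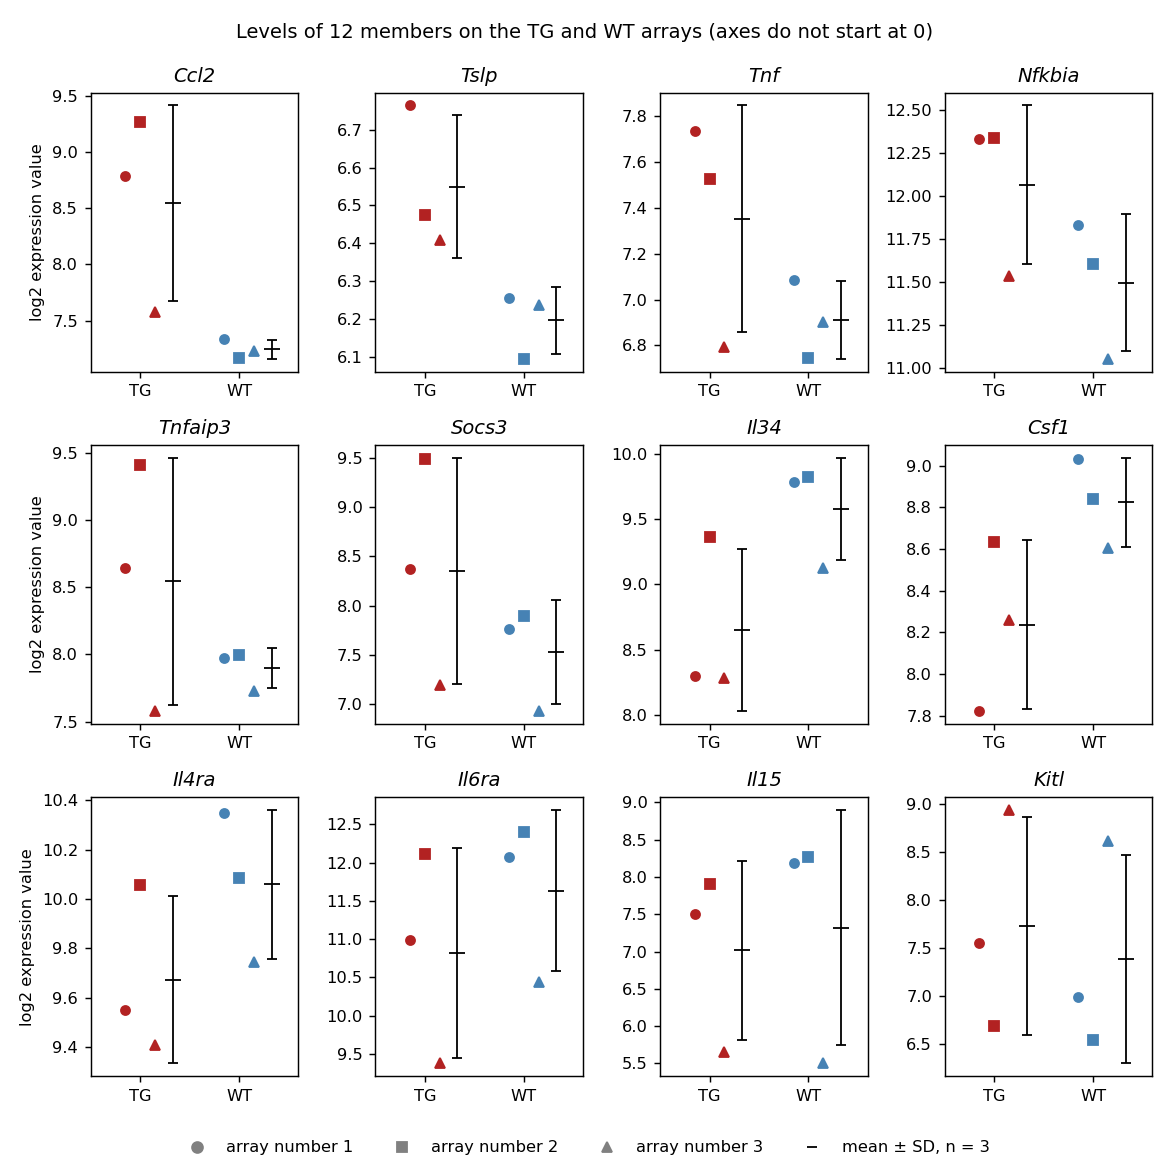
Log2 expression value (vertical axis, not starting at 0) of 12 members on the 3 TG and 3 WT arrays, with a symbol for each array number and a bar for mean ± SD. Ccl2 and Tslp have no overlap between genotypes, while Il15, Il6ra and Kitl split mainly by the arrays numbered 3.

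Among growth factors, Kitl was the most variable. It encodes stem cell factor, the ligand of the receptor KIT on melanocytes and mast cells. It read 7.56, 6.69 and 8.94 in TG, against 6.99, 6.55 and 8.61 in WT. The arrays numbered 3 were the highest of each genotype, and TG was above WT in all 3 pairs by number, by 0.56, 0.14 and 0.32. Melanocyte markers did not run parallel to it: their mean over 6 genes was 6.66, 6.95 and 7.02 on TG arrays 1 to 3 and 7.49, 7.23 and 6.14 on WT arrays 1 to 3. Mast cell markers had a mean level of 4.27 to 4.34 in TG and 4.22 to 4.39 in WT. The genes of the myeloid growth factors Csf2 and Csf3 averaged 4.88 ± 0.14 and 5.45 ± 0.40 in TG, against 4.87 ± 0.13 and 5.62 ± 0.10 in WT (SD, n = 3 each). The second feature of Csf2 differed by -0.15, against 0.010 for the feature used.

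All 5 members that encode cytokine receptors or the interleukin-1 receptor antagonist had a difference below 0, with a median of -0.25 and a range of -0.81 to -0.077. None had an unadjusted p under 0.05 in limma. Il6ra, which encodes the ligand-binding chain of the interleukin-6 receptor, read 10.99, 12.11 and 9.38 in TG, against 12.07, 12.40 and 10.44 in WT. Its arrays spanned 3.02, the widest span of the 41 members. It was lowest on the arrays numbered 3 and lower in TG within each pair by number, with differences of -1.09, -0.29 and -1.06. The difference was -0.81 ± 0.78 (SE) when the pairs were ignored, and the SE was 0.19 with the number as a block. The difference was -1.45 without TG array 2, -0.089 without TG array 3, -0.43 without WT array 2 and -1.41 without WT array 3. Il4ra, whose product serves in the receptors for interleukin-4 and interleukin-13, read 9.55, 10.05 and 9.41 in TG, against 10.35, 10.08 and 9.75 in WT. Its difference was -0.39 ± 0.23 (SE), and TG array 2 lay above WT array 3. Leaving out TG array 3 gave -0.26, and leaving out WT array 1 gave -0.24.

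Il1rn, which encodes the secreted and intracellular forms of the interleukin-1 receptor antagonist, read 9.13, 9.66 and 7.61 in TG, against 9.62, 9.71 and 7.81 in WT. Il1r1, which encodes the signalling receptor that it blocks, read 8.15, 8.84 and 8.08 in TG, against 8.71, 8.82 and 7.78 in WT. Both were lowest on the arrays numbered 3. Il17ra, encoding the shared chain of interleukin-17 receptors, averaged 8.87 ± 0.52 in TG and 8.96 ± 0.082 in WT (SD, n = 3 each).

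Suprabasal keratinocyte markers followed some of these genes across the arrays. The 7 markers had a mean level of 11.20, 12.29 and 10.29 on TG arrays 1 to 3 and 12.31, 12.42 and 10.62 on WT arrays 1 to 3, and all 7 had a TG minus WT difference below 0. Within each genotype the order was the same as for Il6ra, Il1rn and Il1r1, with TG array 1 below WT array 1. Il4ra and Il17ra differed from it, since among the WT arrays they were highest on array 1. Il17ra read 9.04, 8.97 and 8.88 on WT arrays 1 to 3. The markers' part in the receptor values was not tested.

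Among NF-kappaB subunits and feedback inhibitors, Nfkbia, Tnfaip3 and Socs3 were highest on TG arrays 1 and 2, and Rela and Socs1 were not. Rela, which encodes the p65 subunit, averaged 10.25 ± 0.22 in TG and 10.28 ± 0.15 in WT (SD, n = 3 each). Nfkbia encodes IkappaB-alpha, the inhibitor that NF-kappaB itself induces. It read 12.33, 12.34 and 11.54 in TG, against 11.83, 11.61 and 11.05 in WT. TG array 3 lay below WT arrays 1 and 2, so the genotypes overlapped, but TG was higher in each pair by number, by 0.50, 0.73 and 0.48. Its difference was 0.57 ± 0.29 (SE) with the pairs ignored, or 1.48-fold, with an unadjusted p of 0.0954 in limma and an exact two-sided permutation p of 0.3. Without WT array 3 the difference was 0.35. With the number as a block the SE was 0.11 and the adjusted p 0.533.

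Tnfaip3 encodes A20, a ubiquitin-editing enzyme that ends NF-kappaB signalling. It read 8.641, 9.413 and 7.578 in TG, against 7.973, 7.999 and 7.732 in WT. TG arrays 1 and 2 were above every WT array and TG array 3 was below every WT array. The difference was 0.64 ± 0.43 (SE). It was 1.13 without TG array 3 and 0.21 without TG array 2.

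Socs1 and Socs3 encode suppressors of JAK-STAT signalling downstream of cytokine receptors. Socs3 read 8.37, 9.49 and 7.19 in TG, against 7.76, 7.90 and 6.93 in WT, a difference of 0.82 ± 0.57 (SE). It was 0.25 without TG array 2, 1.40 without TG array 3 and 0.52 without WT array 3. TG was above WT in each pair by number, by 0.61, 1.59 and 0.26. The second feature of Socs3 read 7.87, 8.34 and 6.81 in TG, against 7.59, 7.66 and 7.00 in WT, and its difference of 0.26 was smaller. By that feature TG array 3 lay below WT array 3, so TG was not higher in every pair. Socs1 read 7.69, 8.07 and 8.43 in TG, against 8.21, 7.73 and 8.04 in WT, with no separation.

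Ccl2, Tnf, Nfkbia, Tnfaip3 and Socs3 were each lowest on array 3 among the TG arrays. Without both arrays numbered 3, their differences were 1.77, 0.72, 0.61, 1.04 and 1.10. In that comparison of 2 against 2 arrays, 16 members did not overlap between genotypes, or 39.0%, against 37.7% of all genes. The 11 higher members were Ccl2, Cxcl12, Cxcl16, Il6, Il7, Lif, Nfkbia, Socs3, Tnf, Tnfaip3 and Tslp. The 5 lower members were Csf1, Csf3, Il15, Il34 and Il4ra. The share of all genes in each direction was not calculated there, and none of the 16 members passed the adjusted threshold. Immediate early genes, which respond within minutes to stimuli and to tissue dissociation, had their highest mean levels on TG arrays 1 and 2. The 11 genes listed had a mean level of 11.72, 12.15 and 10.64 on TG arrays 1 to 3 and 10.73, 10.59 and 10.02 on WT arrays 1 to 3. All 11 were higher in TG in each pair by number. Their part in the values of the NF-kappaB feedback genes was not tested.

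The proximal promoters of Nfkbia, Tnfaip3 and Csf1 are printed because these 3 genes include members on both sides of 0 and hold the sequence motif of NF-kappaB. They are the 250 bases before the annotated start of transcription (for Tnfaip3, the outer of its 2 starts), from RefSeq on GRCm38.p6, written 5′ to 3′ on the strand of the gene. Capitals mark matches to the kappaB consensus on either strand. The Nfkbia window is chr12:55492648-55492897, minus strand, the Tnfaip3 window is chr10:19015411-19015660, minus strand, and the Csf1 window is chr3:107760470-107760719, minus strand.
Nfkbia: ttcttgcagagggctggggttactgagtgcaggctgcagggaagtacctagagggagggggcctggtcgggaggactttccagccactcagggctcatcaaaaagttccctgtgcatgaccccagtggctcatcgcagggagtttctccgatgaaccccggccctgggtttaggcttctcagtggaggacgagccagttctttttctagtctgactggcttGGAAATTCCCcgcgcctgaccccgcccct
Tnfaip3: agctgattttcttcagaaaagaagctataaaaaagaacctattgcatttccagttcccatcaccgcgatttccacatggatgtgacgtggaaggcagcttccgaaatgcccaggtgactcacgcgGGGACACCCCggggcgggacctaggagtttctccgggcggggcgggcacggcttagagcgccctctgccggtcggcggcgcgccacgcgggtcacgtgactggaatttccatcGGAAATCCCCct
Csf1: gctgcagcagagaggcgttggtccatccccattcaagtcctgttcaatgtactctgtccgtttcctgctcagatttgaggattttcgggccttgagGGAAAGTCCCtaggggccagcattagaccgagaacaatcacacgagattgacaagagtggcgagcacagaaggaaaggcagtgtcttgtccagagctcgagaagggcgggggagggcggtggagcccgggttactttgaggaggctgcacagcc

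The Nfkbia window held 1 match, 29 to 20 bases before the start, and the Csf1 window held 1 match, 154 to 145 bases before it. The Tnfaip3 window held 2 matches, at 125 to 116 and at 12 to 3 bases before the start. Of the 28 members matched to the promoter table by symbol, 11 (39.3%) had a kappaB match in this window, against 8.23% of 27025 genes. They were Ccl20, Csf1, Cxcl1, Cxcl2, Cxcl10, Il1r1, Il6, Kitl, Lif, Nfkbia and Tnfaip3. Matches were counted on both strands and could overlap each other, as those of Cxcl1, Cxcl2 and Cxcl10 did. The AP-1 site TGANTCA, searched in the same way, stood before 5 of the 28 members (17.9%), against 7.82% of all genes. These were Il1rn, Il6, Cxcl10, Tnfaip3 and Lif. Members with a match had a median TG minus WT difference of 0.10, with 8 of 11 above 0 and a range of -0.59 to 0.64. Those without a match had a median of -0.026, with 7 of 17 above 0 and a range of -0.81 to 0.82. Many members are on the list because they are known NF-kappaB genes, so the share is a description of the list. Ccl2, Il34 and Tslp were not used in the motif search.

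A split by the arrays numbered 3 was more frequent than one by genotype, among the members and among all genes alike. By genotype, 4.88% of members and 7.2% of all genes did not overlap. Both arrays numbered 3 lay below the other 4 arrays for 14 members (34.1%, against 28.8% of all genes) and above them for 7 members (17.1%, against 19.4% of all genes). The 14 low members were Ccl5, Ccl17, Cx3cl1, Il6, Il15, Il18, Lif, Il1r1, Il1rn, Il6ra, Il17ra, Nfkbia, Tnfaip3 and Socs3. The 7 high members were Ccl4, Cxcl2, Cxcl5, Cxcl9, Cxcl14, Csf3 and Kitl. The 6 arrays spanned 1 or more on the log2 scale for 18 members (43.9%, against 18.6% of all genes) and 0.5 or less for 8 members (19.5%, against 39.2% of all genes). The 8 steady members were Ccl3, Ccl7, Ccl8, Ccl22, Lif, Osm, Csf2 and Rela.

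**Figure D3:**
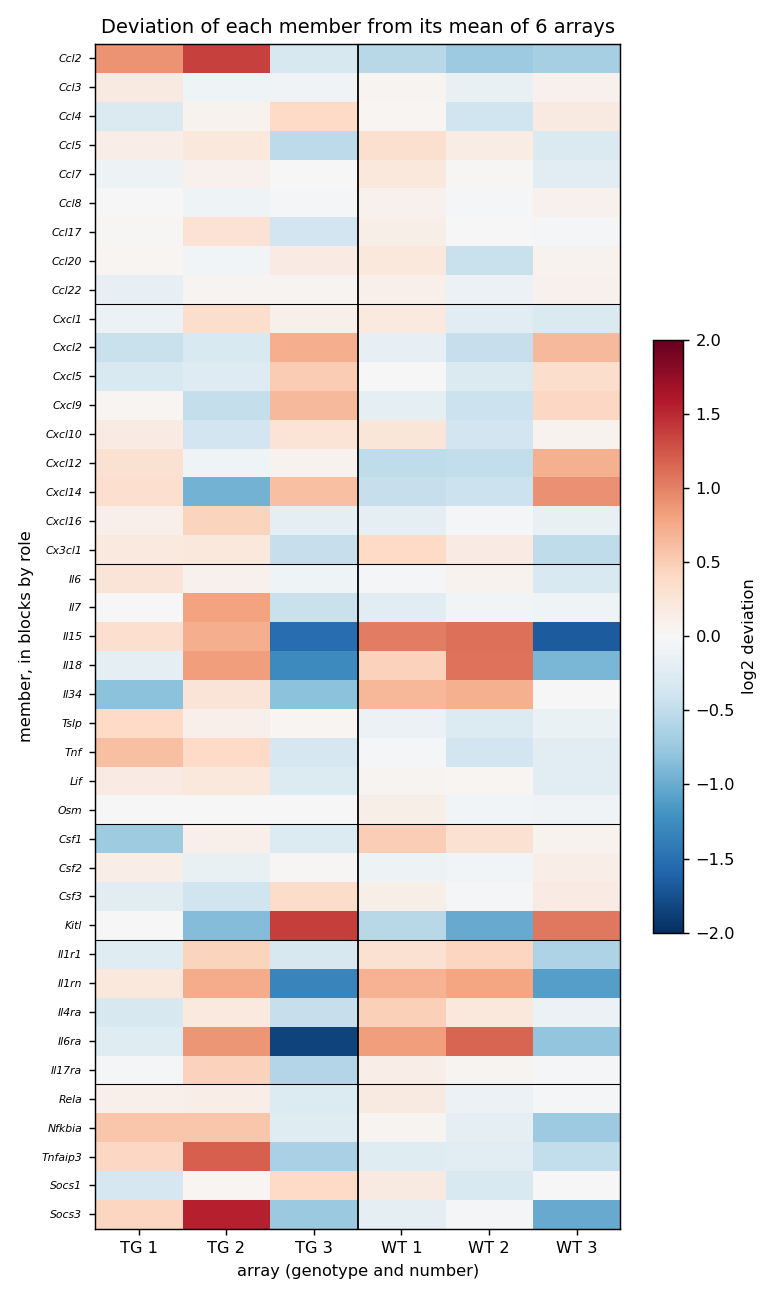
Deviation of each of the 41 members (rows, in blocks by role) from its own mean over the 6 arrays, on the log2 scale, with TG arrays 1 to 3 on the left and WT arrays 1 to 3 on the right. Il15, Il18, Il1rn and Il6ra are low and Kitl and Cxcl2 are high on the arrays numbered 3 of both genotypes, while Ccl2, Tnfaip3 and Socs3 are high on TG arrays 1 and 2.

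Bulge stem cell markers were, by their mean, high on TG array 1 as well as on the arrays numbered 3. These 8 genes, including Cd34, Lgr5 and Sox9, had a mean level of 11.07, 9.98 and 11.08 on TG arrays 1 to 3 and 9.95, 10.02 and 11.44 on WT arrays 1 to 3. Of these 8 genes, 3 were above the other 4 arrays on both arrays numbered 3, and 1 was below them. Cd34, one of the sorting markers, read 11.57, 9.65 and 12.42 in TG, against 9.78, 9.89 and 13.07 in WT. T-cell markers had a mean level over 10 genes of 7.49, 8.74 and 6.77 in TG, against 8.12, 8.43 and 6.96 in WT, and 9 of the 10 were lowest on both arrays numbered 3. The T-cell receptor component gene Cd3e read 9.62, 11.37 and 7.87 in TG, against 10.18, 11.05 and 8.91 in WT. The lowest value of any feature was 2.85, so no marker was listed at 0, and no detection value was used, so no cell type is called present or absent. Neutrophil markers had a mean level of 5.17 to 5.50 in TG and 4.98 to 5.40 in WT, and endothelial markers 5.56 to 6.28 in TG and 5.48 to 6.12 in WT. Basal keratinocyte markers were steady in their mean over 4 genes, at 11.97 to 12.03 in TG and 11.95 to 12.12 in WT. On both arrays numbered 3, however, 2 of these genes lay below the other arrays and 2 lay above them. The part of other cell types in the values of Il15, Il18, Il1rn, Il6ra and Ccl5 was not tested.

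**Figure D4:**
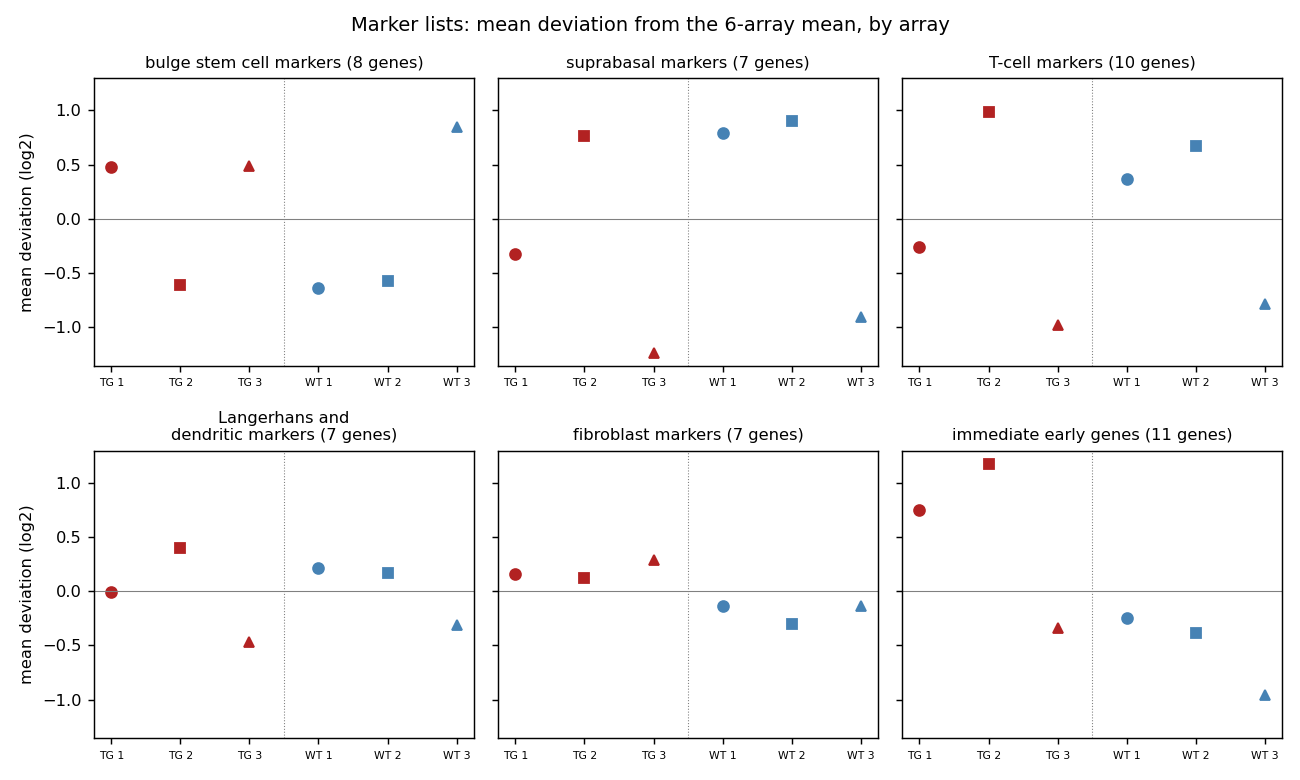
Mean deviation of 6 gene lists from their 6-array mean (vertical axis, log2) on TG arrays 1 to 3 and WT arrays 1 to 3 (horizontal axis). Suprabasal and T-cell markers are lowest on the arrays numbered 3, bulge markers are high on those arrays and on TG array 1, and immediate early genes are higher on TG arrays 1 and 2 than on all WT arrays.

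The rest of the pathway was read from lists of genes outside the 41 members, and 0 genes of these lists passed the adjusted threshold in limma. Of 18 other chemokine genes, 7 were above 0, the median difference was -0.11, and 1 was higher and 0 lower at an unadjusted p under 0.05. That gene was Ccl1, with 6.42, 6.38 and 6.60 in TG, against 5.82, 5.84 and 6.33 in WT. Ccl28, a mucosal chemokine gene, differed by -0.38 ± 0.18 (SE). Of 21 chemokine receptor genes, 8 were above 0 with a median of -0.048, and 0 had an unadjusted p under 0.05. Ccr9 differed by -0.21 ± 0.12 (SE). Cxcr4, the receptor gene for the Cxcl12 product, read 9.90, 9.38 and 9.52 in TG, against 8.36, 7.94 and 10.07 in WT, so WT array 3 was again the exception. Ccr4, a T-cell receptor gene for the products of Ccl17 and Ccl22, read 7.15, 8.65 and 5.70 in TG, against 8.92, 8.36 and 5.80 in WT, with the arrays numbered 3 lowest. Ccr4 was chosen after its values were seen.

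Of 39 other cytokine genes, 18 were above 0 with a median of -0.017, and 1 was higher and 0 lower at an unadjusted p under 0.05. This was Tnfsf9, which encodes the ligand of the T-cell co-stimulator 4-1BB, with 6.55, 6.83 and 6.44 in TG, against 6.10, 6.13 and 6.06 in WT. Il17a read 6.60, 6.65 and 6.12 in TG, against 6.15, 6.22 and 5.86 in WT. Of 35 other cytokine receptor genes, 16 were above 0 with a median of -0.025, and 0 had an unadjusted p under 0.05. Il17rb differed by 0.39 ± 0.25 and Lifr, which encodes the LIF receptor, by -0.31 ± 0.21 (SE).

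Of 37 other genes of the NF-kappaB pathway, 14 were above 0 with a median of -0.073, and 1 was higher and 1 lower at an unadjusted p under 0.05. Nfkbid, which encodes a nuclear IkappaB protein, read 7.78, 7.59 and 7.10 in TG, against 6.41, 7.03 and 6.77 in WT. Rnf31, which encodes the catalytic subunit of the linear ubiquitin ligase complex, read 9.03, 9.17 and 8.93 in TG, against 9.44, 9.36 and 9.29 in WT. Of 16 genes listed as NF-kappaB targets, 10 were above 0 with a median of 0.15, and 1 was higher and 1 lower at an unadjusted p under 0.05. Ier3, a stress-induced gene, read 8.26, 8.22 and 7.28 in TG, against 7.16, 6.86 and 7.28 in WT. Mmp9, which encodes a gelatinase, read 6.52, 6.75 and 6.19 in TG, against 7.02, 7.42 and 6.79 in WT. Of 22 JAK, STAT and SOCS genes, 7 were above 0 with a median of -0.074, and 0 were higher and 1 lower at an unadjusted p under 0.05. Pias3, which encodes an inhibitor of STAT3, read 8.63, 8.80 and 8.72 in TG, against 9.17, 8.94 and 9.34 in WT. The phosphatase gene Ptpn2 differed by 0.33 ± 0.15 (SE).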

How the data were processed

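RNA of each sample was hybridised to 1 Affymetrix GeneChip Mouse Gene 2.0 ST array. The authors deposited 1 value per array and feature, read here as log2 from its range. The sources used here state neither the summarisation and scaling of the arrays nor a genome build. The submitters' processing notes name 2 programs, Affymetrix Expression Console (version 1.4.1) and Transcriptome Analysis Console, without saying what each did. The array medians over all 41345 features lay between 5.90 and 5.99, and precision is limited by the 3 arrays per genotype.

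Of the features, 23521 had exactly 1 symbol in the platform annotation. The brightest per gene gave 22180 genes, with no filter on low values. A linear model with group as its only term was fitted in limma 3.58.1 (R 4.3.3) with moderated variances, two-sided tests, p-values adjusted by Benjamini-Hochberg over all genes (threshold 0.05). The fit was tested on simulated arrays with independent noise and planted changes larger than any member difference. Changes of the members' size and the shared pattern of the arrays numbered 3 were not simulated. Differences were given for the 14 members with the smallest unadjusted p, and other members by their levels. In each further list the 2 genes with the smallest unadjusted p were given as values, whether or not they passed. Exact permutation tests were two-sided over the 6 arrays. Members and lists were chosen with earlier results of these data known. Array numbers 1 to 3 occur in both genotypes. After subtraction of the genotype means, arrays of the same number correlated over all genes at 0.20, 0.67 and 0.74. Each value exceeded the limit of 0.1, so an alternative fit paired them by number. Arrays of different numbers correlated at -0.72 to 0.50, and WT array 1 was closer to TG array 2 (0.50) than to TG array 1. TG array 1 with WT array 2 (0.17) also exceeded the limit, so the limit does not single out arrays of the same number. The pairing by number rests on the data, as the labels name no shared batch. Another 15 alternatives changed the scaling, features, filter, variance model or arrays used.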

Additional observations from a re-analysis of the deposited data

How the results depend on the processing

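No member passed the adjusted threshold in any of the 16 alternative fits, and the lowest adjusted p of the 14 members described by their difference was 0.195 over them. All 220 values of those members kept the sign of the difference. These members were chosen by their p in the main fit of the same data, which favours a stable sign. The block, the moderation settings, the level filter and the fit of all features leave the difference itself unchanged. The mean of the features of a gene changed it for Socs3 alone of these members. Where the difference was unchanged the sign could not turn, so those values do not count as a check of it. In the paired fit, with array number as a block, 1 gene, Pla2g2a, and 0 members were called, and the block changed no other call. The call of Pla2g2a was lost, leaving 0 genes, without TG array 1, without both arrays numbered 3 and with no moderation of the variance, so leaving out 1 array gave 0 to 1 genes. The count of 2 members without overlap between genotypes became 16 without both arrays numbered 3 and 1 among genes above the median level, where 25 members were tested and Tslp was not. Leaving out single arrays gave 3 to 11, with 5 in the absence of TG array 2, 11 without TG array 3, 4 without WT array 1 or WT array 2, and 7 without WT array 3. Fewer arrays overlap less often. The share over all genes was 20.1% without TG array 3 and 37.7% without both arrays numbered 3. It was not calculated for the other settings, so those counts cannot be read as particular to the members. The median difference of the members stayed between -0.046 and 0.077, with both signs.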
